A study of Mus musculus with 83 samples.

Results

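RNA polymerase II (Pol II) CUT&Tag of the TRF2 knockout line B8 was set against that of its parent line C64, using 4 B8 control libraries (2 each from sequencing runs 6 and 8) and 2 C64 control libraries (run 2). These are 6 of the 83 samples of the series, taken by their labels from the deposited count table that holds both lines, with every gene type in it kept. In CUT&Tag an antibody, here against Pol II, brings a transposase to its target, and the released fragments are sequenced. The study asked what Pol II occupancy looks like in mouse embryonic stem (ES) cells that lack TRF2.

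Both lines descend from JM8.N4, a male mouse ES cell line. Both carry a minimal auxin-inducible degron on TBP, so that indole-3-acetic acid (IAA) removes TBP, and both carry GFP on histone H3.3 and a further tagged allele that is not described here. B8 is 1 clone of C64 in which Tbpl1, the gene of TRF2, was cut out with Cas9. The control samples of both lines are labelled untreated, and the study's methods describe control cells as given DMSO, the vehicle. Beside them stand 2 further C64 control libraries (run 3) and the libraries of cells given 500 µM IAA for 6 h (4 of B8 from runs 6 and 8, 2 of C64 from run 2). The C64 run 3 controls belong to an experiment of the study whose IAA treatment was longer than 6 h. Between the C64 runs, run and length of the experiment therefore cannot be told apart. No run holds Pol II libraries of both lines, so line, clone and run cannot be told apart. The study's methods name transposase from 2 sources without saying which run used which. The labels do not say whether replicates were separate cultures, so p-values measure only the spread between these libraries.

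TRF2, also called TBP-like factor or TBPL1, is a paralog of TBP, the factor that nucleates the Pol II preinitiation complex at promoters. It shares the saddle-shaped core domain of TBP and binds TFIIA and TFIIB, but it does not recognise the TATA box. In flies TRF2 is known for its role at TATA-less promoters, among them those of ribosomal protein genes, which start at a run of pyrimidines, and in mice for its requirement in spermiogenesis. In bulk samples like these, fewer cells of a type and less Pol II per cell cannot be told apart.

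The deletion was designed with 2 guides whose target sites, shown because they fix which part of the Tbpl1 feature can still give fragments, each had 1 exact match in the genome. The PAM is in capitals, and the coordinates of the 20-base targets are on GRCm38.p6.
Guide 1, chr10:22712031-22712050, plus strand: atcactgtctgcatccattgGGG
Guide 2, chr10:22705768-22705787, plus strand: gcaggtctcaaacggtgctcAGG
Guide 1 lies over the start codon in exon 2 of 7, and guide 2 in the 3′ UTR in exon 7. Between the expected cuts are 6263 bases, which hold 560 of the 561 coding bases but not exon 1 (chr10:22731116-22731447). The actual breakpoints of B8 were not analysed here.

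Over Tbpl1, 75 and 29 fragments were counted in the C64 libraries, 9 and 6 in the B8 run 8 libraries, and 1 and 4 in the B8 run 6 libraries. All 4 B8 values lay below both C64 values, and the C64 libraries of run 3 held 45 and 43. As CPM, which are counts scaled to the TMM-adjusted library size, Tbpl1 stood at 2.74 ± 1.46 in B8 (SD, n = 4) and 10.1 ± 6.18 in C64 (SD, n = 2). The gene fell below the count filter, and a fit without it gave a log2 change of -1.91 ± 0.56 (SE, edgeR quasi-likelihood test, adjusted p = 0.845 over 37077 features). The counted feature (chr10:22703879-22731938) is 28060 bases long, but only 8500 of them belong to no other feature. The feature AC166256.1 shares 19153 bases with it and Slc2a12 shares 407, and fragments over shared bases were not assigned. Of the 8500 bases, 73.7% lie between the expected cuts, which leaves 2237 from which B8 could still give fragments.

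**Figure D1:**
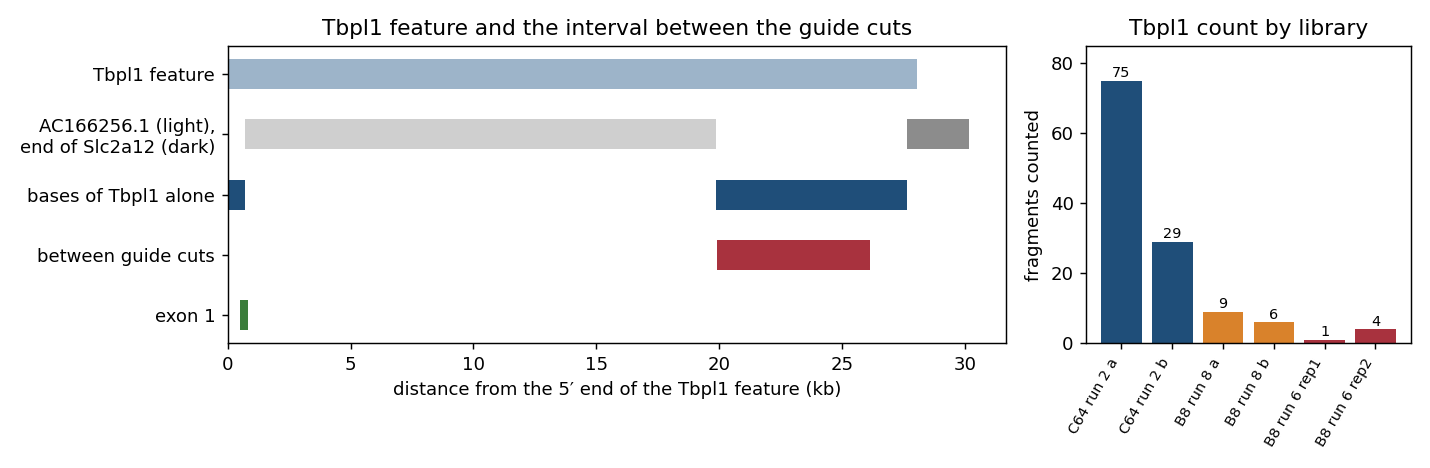
Left, the Tbpl1 feature drawn to scale (distance from its 5′ end in kb), with the features that overlap it, the bases that are its own, the interval between the guide cuts and exon 1. Right, fragments counted over Tbpl1 in each library, where the 2 C64 libraries (75 and 29) stand above the 4 B8 libraries (1 to 9).

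Fragments assigned to features numbered 5325523 and 5178125 in the C64 libraries, 2638315 and 2613844 in B8 run 8, and 1232795 and 1021508 in B8 run 6, so a count of 3 was worth 0.563 to 2.94 CPM. Run 6 rep2 stood apart: its log2 CPM correlated with those of the other libraries at 0.828 to 0.895, against 0.930 to 0.979 among the other 5, and 11.8% of its fragments lay over features that the C64 tables leave out (4.34 to 6.12% in the others). Chi-square per degree of freedom between the 2 libraries of a pair was 7.45 for C64, 1.38 for B8 run 8 and 7.94 for B8 run 6. The run 8 pair was thus closest to counting error alone. Such a value cannot tell technical replicates of the same culture from separate cultures. Naive pluripotency markers, the defining markers of these cells, had a summed level of 4441 to 4517 CPM in C64 and 2677 to 5698 CPM in B8. Of the 30 listed, 1 (Sox2) had 0 fragments in every library. Whether its bases are shared with another feature, and so not counted, was not examined here.

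Across 16316 tested features, edgeR's quasi-likelihood test called 0 as different between B8 and C64 at an adjusted p of 0.05, the smallest adjusted p being 0.167. At an unadjusted p under 0.05 there were 935 (5.73%), of which 388 were higher in B8 (2.38%) and 547 lower (3.35%). The likelihood-ratio test of edgeR, which the study used, called 7 higher (0.0429%) and 8 lower (0.0490%), and DESeq2 11 higher (0.0674%) and 5 lower (0.0306%), with 11 called by both. Without B8 run 6 rep2 the quasi-likelihood test called 3 higher and 4 lower of 15518, among them Snhg4, Tardbp, Morf4l2, Tmcc3os and Gm15218. CPM values of B8 and C64 did not overlap for 2687 features (16.5%), 1224 of them higher in B8 (7.50%) and 1463 lower (8.97%).

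The smallest p among the lower genes was that of Snhg4, a non-coding host gene of small nucleolar RNAs (snoRNAs) on chromosome 18. It stood at 432 and 410.1 CPM in C64, at 93.0 and 86.8 CPM in B8 run 8, and at 52.8 and 37.9 CPM in B8 run 6. All 4 B8 libraries lay far below both C64 libraries without overlap, and run 6 lay below run 8. The log2 change was -2.62 ± 0.35 (adjusted p = 0.167 with all 6 libraries and 0.000616 without run 6 rep2). Its deposited feature joins 2 loci and shares 25571 bases with Matr3, whose fragments are not assigned to either.

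Of the other genes with the 5 smallest p in the downward direction, Tardbp (chr4:148612382-148627019) encodes the RNA-binding protein TDP-43. It held 123 and 108 CPM in C64, 58.8 and 47.8 in B8 run 8, and 48.2 and 36.9 in B8 run 6, a log2 change of -1.25 ± 0.23. Morf4l2 (chrX:136732942-136743690), of a chromatin complex that acetylates histones, held 95.4 and 60.1 CPM in C64, 30.9 and 28.5 in run 8, and 30.6 and 26.2 in run 6 (-1.41 ± 0.24). For both genes the 4 B8 libraries lay close together and well below the lower C64 library. Rps20 (chr4:3831334-3835665), a protein of the small ribosomal subunit, held 175 and 114 CPM in C64, 70.2 and 66.2 in run 8, and 54.3 and 45.7 in run 6 (-1.28 ± 0.27). Cep55 (chr19:38055011-38074423), which acts in the last step of cell division, held 64.9 and 65.4 CPM in C64, 35.5 and 29.4 in run 8, and 28.3 and 32.1 in run 6 (-1.05 ± 0.21). Again no B8 library reached the C64 values. The adjusted p was nonetheless 0.696 for these 4 genes with all 6 libraries, and 0.0429 for Tardbp and Morf4l2 without run 6 rep2. Against C64 run 3 the log2 changes were -0.48 for Tardbp, -0.64 for Morf4l2, -0.36 for Rps20 and -0.35 for Cep55. Between the C64 runs (run 3 against run 2), with no difference of line, they were -0.77, -0.76, -0.91 and -0.70.

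Tmcc3os led the higher genes (chr10:94567828-94612084, minus strand). It is a non-coding gene antisense to Tmcc3, with which it shares 23129 bases, and counting without strand cannot separate the pair over them. It held 14.8 and 24.6 CPM in C64, 125 and 140.4 in B8 run 8, and 43.6 and 94.2 in B8 run 6 (log2 change 2.37 ± 0.41, adjusted p = 0.696, and 0.0429 without run 6 rep2). The B8 libraries were all above C64, with run 8 above run 6. Gm15218 (chr14:45754689-45993170), which shares 47038 bases with Gm49192, held 25.0 and 28.0 CPM in C64 against 60.4, 59.95, 65.8 and 97.2 in B8 (1.40 ± 0.25, the same 2 adjusted p). BC067074 (chr13:113293159-113379711) held 22.0 and 29.2 CPM in C64 against 56.2, 55.8, 58.2 and 73.8 in B8 (1.24 ± 0.23). In both, 3 of the B8 libraries nearly coincided and run 6 rep2 was the highest. Tmcc3os had 1.96 against C64 run 3 and 0.41 between the C64 runs, and BC067074 had 0.43 and 0.83. Gm37556 (chr4:99376066-99385712) held 5.39 and 6.30 CPM in C64 against 19.02, 17.6, 16.1 and 15.6 in B8 (1.55 ± 0.31), and Slc2a12, described with the Tbpl1 neighbourhood, completed the 5.

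**Figure D2:**
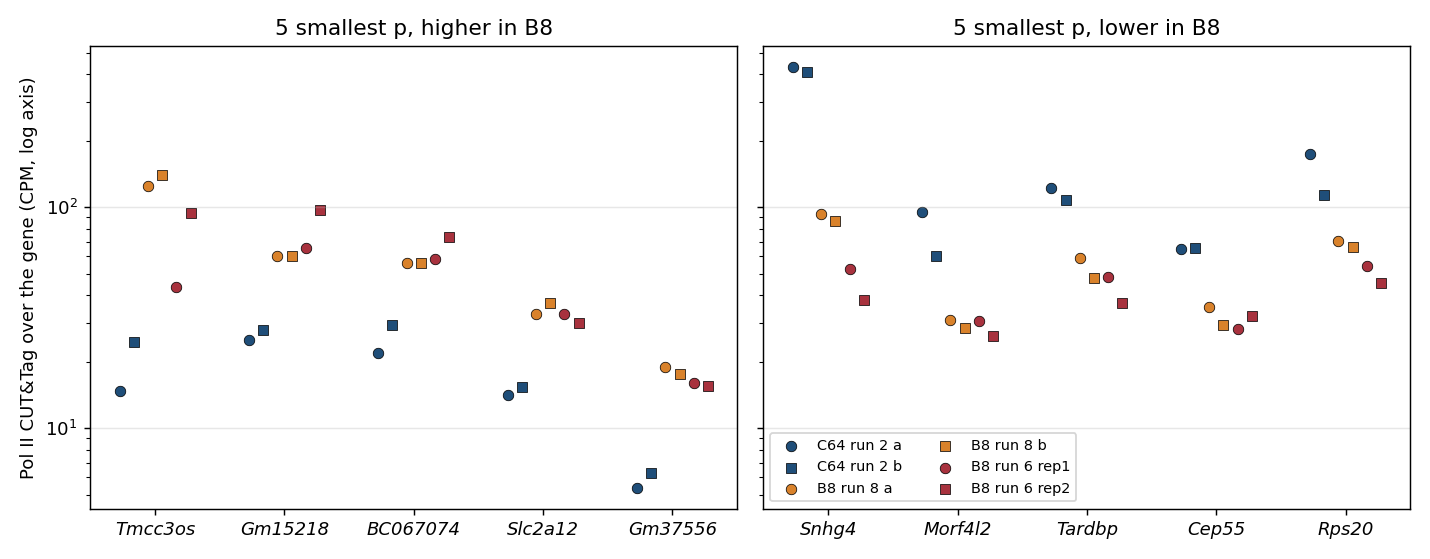
Pol II CUT&Tag level (CPM, log axis) in each of the 6 libraries for the 5 genes with the smallest p in each direction, left higher and right lower in B8, colours giving line and run. For all 10 genes the 4 B8 points lie on 1 side of both C64 points, the widest gap being that of Snhg4 (37.9 to 93.0 CPM against 410.1 and 432).

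Because TRF2 is known for TATA-less and pyrimidine-start promoters, bases around the start are shown for Tbpl1, its neighbour Slc2a12 and 2 picked leading lower genes. They run from 40 before to 10 after the start, the start base in capitals (RefSeq promoter table, GRCm38.p6, its first listed start of each gene). Of the other leading lower genes, Cep55 was not shown, and Rps20 and Snhg4 have no entry there under those symbols.
Tbpl1, chr10:22731438-22731487, minus strand: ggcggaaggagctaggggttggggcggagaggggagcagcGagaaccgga
Slc2a12, chr10:22644971-22645020, plus strand: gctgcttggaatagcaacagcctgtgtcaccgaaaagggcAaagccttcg
Tardbp, chr4:148626987-148627036, minus strand: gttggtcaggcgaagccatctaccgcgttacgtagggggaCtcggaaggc
Morf4l2, chrX:136743677-136743726, minus strand: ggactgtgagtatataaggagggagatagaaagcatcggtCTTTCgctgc
Neither strand-specific search was matched by the first 3: TATAAA within 40 to 19 bases before the start, or a C at the start followed by 4 pyrimidines. Morf4l2 matched the second, marked by its longer capitals, but not the first. Its bases before the start do hold tatataag, a near variant of TATAAA that the exact search leaves out. Its promoter is therefore not described here as TATA-less. Of 32851 starts of 27025 genes, 1.94% matched TATAAA and 2.51% the pyrimidine start. Tested genes with the pyrimidine start at any listed start (380) had a median log2 change of 0.013, and those without (11670) of 0.0178. With TATAAA at any listed start (178 genes) the median was 0.112, and without (11872) it was 0.0165. The median of the TATAAA genes was -0.09 with only run 8 and 0.21 with only run 6. Against C64 run 3 it was 0.05, and between the C64 runs, with no difference of line, 0.11.

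The 2 B8 runs, each set against the same 2 C64 libraries, gave many more calls apart than together. In run 8, 626 features rose (3.71%) and 246 fell (1.46%) of 16873. In run 6, 163 rose (0.951%) and 279 fell (1.63%) of 17143. Between the B8 runs themselves, with no difference of line, 1067 features were higher in run 8 (7.57%) and 674 lower (4.78%) of 14097. Snhg4 fell by 2.22 on the log2 scale in run 8 (adjusted p = 1.48e-07) and by 3.23 in run 6 (0.000348), and the runs differed by 0.92 (0.037). These counts rest on 2 libraries a run: leaving out 1 of the libraries gave 135 (without C64 a) to 4927 (without run 6 rep1) for run 6, 233 (without run 8 a) to 2880 (without C64 a) for run 8, and 119 (without run 8 a) to 7268 (without run 6 rep1) between the B8 runs. Tmcc3os rose in both, by 2.76 in run 8 (2.79e-06) and 1.76 in run 6 (0.0335).

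**Figure D3:**
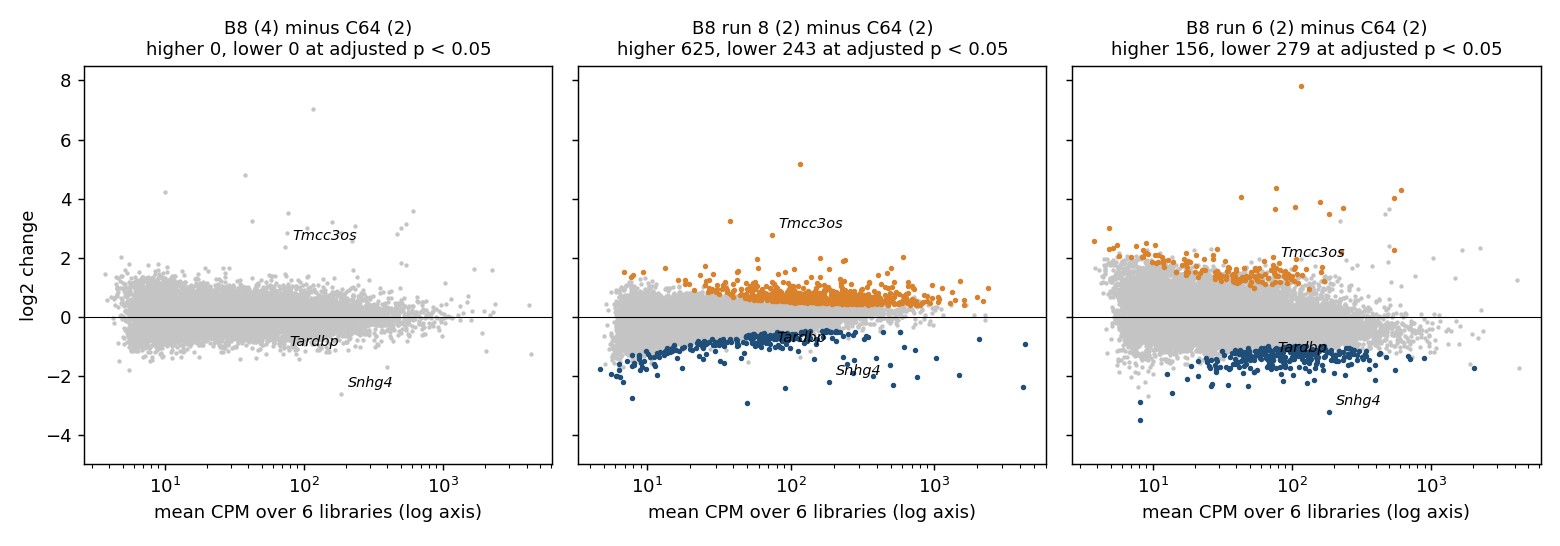
Log2 change against mean level (CPM over the 6 libraries, log axis) for the features tested with all 6 libraries, from B8 against C64 (left), B8 run 8 against C64 (middle) and B8 run 6 against C64 (right), coloured points being past the adjusted threshold. Orange points (higher) extend along the abundant genes in run 8, blue points (lower) along those in run 6, and the left panel has none.

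Genes called in run 8 included some that were not higher in both libraries of run 6. The lipase gene Abhd6 stood at 139 and 97.5 CPM in C64, at 432 and 459 in B8 run 8, and at 113 and 206 in B8 run 6. The actin-regulating gene Mtss1 stood at 240 and 297 CPM in C64, 726 and 704 in run 8, and 254.8 and 224 in run 6. In both genes run 8 was far above C64 while 1 of the 2 run 6 libraries lay between the C64 libraries, and the B8 runs differed by 1.42 for Abhd6 (adjusted p = 0.0311) and 1.52 for Mtss1 (0.0253). Msi2, an RNA-binding protein gene, stood at 1866 and 1998 CPM in C64, 3881 and 3737 in run 8, and 1670 and 1167 in run 6. These 3 genes were picked from the run 8 calls after their values were seen.

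The IAA libraries share no library with the controls, although they come from the same runs. With TBP depleted in both lines, 155 features were higher in B8 (1.06%) and 347 lower (2.38%) of 14583. Of the leading genes, Snhg4 (-3.47, adjusted p = 4.14e-08), Tardbp (-1.75, 0.000911), Morf4l2 (-1.07, 0.0181), Rps20 (-1.05, 0.0163) and Cep55 (-0.87, 0.0275) fell on the log2 scale. Tmcc3os (2.57, 0.00935), BC067074 (1.55, 0.000911) and Slc2a12 (1.01, 0.0416) rose. Gm15218 and Gm37556 are not in the C64 tables and were not tested there. Of 14365 features tested in both, run 8 controls had 206 lower calls and IAA 347, and the 81 in common are 39.3% of the first and 23.3% of the second. For run 6 the 124 in common are 45.6% of 272 and 35.7% of 347. The higher calls in common were 36 for run 8 (6.00% of 600, 24.0% of 150) and 13 for run 6 (11.9% of 109, 8.72% of 149).

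Lower calls in both B8 runs and with IAA were 48 genes, a set formed after the values were seen. It holds the host genes Snhg4 and Snhg1, the snoRNA-particle protein gene Nop56, the splicing and RNA-binding protein genes Tardbp, Hnrnpa3, Hnrnpk and U2af1, the chaperonin subunit genes Cct2, Cct5 and Tcp1, the chaperone gene Hspa8, the cyclin gene Ccnb1 and the semaphorin receptor gene Nrp2. Nrp2 stood at 924 and 547 CPM in C64 and at 274, 277, 172 and 170 CPM in the B8 libraries, with -2.19 in the IAA libraries (adjusted p = 0.000167). The median log2 change of the 48 was -0.704 in run 8, -1.47 in run 6 and -1.17 with IAA. Against the C64 libraries of run 3 it was -0.358, while C64 run 3 against C64 run 2 gave -0.667, and all 48 were below 0 in both. Snhg4 had -2.08 against C64 run 3 and -0.54 between the C64 runs, whereas Snhg1 had -0.09 and -1.17, and Nrp2 -0.52 and -1.19. These comparisons share libraries with the main one.

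Higher calls in the same 3 comparisons were 9 genes: Tmcc3os, BC067074, Nkd1, Cadps, Bbox1, Myo3a, Pde1c, Hs6st3 and Vmn2r77. Nkd1 acts in Wnt feedback, Cadps in secretion and Bbox1 in carnitine synthesis. Vmn2r77 is a vomeronasal receptor gene, of a family taken further on as a measure of background. It held 4.43 and 7.88 CPM in C64, 18.6 and 17.6 in B8 run 8, and 63.5 and 145 in B8 run 6. In all of the 9 but Tmcc3os, run 6 rep2 was the highest library. Nkd1 held 28.5 and 43.5 CPM in C64 and 83.3, 79.2, 77.3 and 137 CPM in B8, and so had no overlap. Bbox1 held 9.63 and 9.26 CPM in C64, 24.9 and 15.9 in B8 run 8, and 119 and 283 in B8 run 6. The run 6 values of Bbox1 stood far above those of run 8, a difference of -3.35 (adjusted p = 0.0253). The median of the 9 was 1.59 against C64 run 2 and 1.46 against C64 run 3, with 0.293 between the C64 runs.

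Within 1 Mb of Tbpl1 the table lists 40 features, of which 22 had a count and 6 passed the filter on low counts. Slc2a12 (chr10:22645011-22704285) is a glucose transporter gene whose 3′ end meets that of Tbpl1. It was the only one of the 6 with an unadjusted p under 0.05, as were 5.73% of all features. It stood at 14.1 and 15.4 CPM in C64 and at 32.96, 36.9, 32.9 and 30.1 CPM in B8. The 4 B8 values lay in a narrow band above C64, and the log2 change was 1.18 ± 0.23 (adjusted p = 0.696, run 8 1.25 with 0.00455, run 6 1.07 with 0.0725). Against C64 run 3 it was 0.80, and between the C64 runs, with no difference of line, 0.39. The other 5 were Sgk1 (0.17), Raet1e (0.62), E030030I06Rik (0.68), Eya4 (0.45) and Platr6 (-0.31). E030030I06Rik and Eya4 were at 123 and 56.4 CPM in run 6 rep2, their highest values, and below C64 on average in run 8 (-0.09 and -0.24).

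Of TBP's own family, Tbp held 33.9 and 34.5 CPM in C64 and 33.8, 25.2, 29.8 and 25.3 CPM in B8 (-0.25 ± 0.23, adjusted p = 0.895). The B8 values did not overlap C64, but the highest of them nearly reached it, and Tbp stood at 0.07 against C64 run 3. Tbpl2, the germline paralog, was at 0.578 to 3.89 CPM and below the filter. The genes of TFIIA, the partner that TRF2 shares with TBP, had log2 changes of -0.37 for Gtf2a2, -0.19 for Gtf2a1 and 0.31 for Gtf2a1l. Among 39 tested genes of TBP-associated and general factors, 1 had an unadjusted p under 0.05 (2.56%, against 5.73% of all features), Taf1d (-1.03), a gene that also hosts snoRNAs. Their median was -0.08, and that of 11 Pol II subunit genes -0.03 with 0 under 0.05, while the median of all tested features was 0.03.

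Genes linked to TRF2 in animal cells were few among those tested. Of 8, 1 was higher at an unadjusted p under 0.05 and 0 were lower (2.38% and 3.35% of all features). This was the cell cycle inhibitor gene Cdkn1a (0.78 ± 0.28, unadjusted p = 0.0198). It held 32.4 and 41.6 CPM in C64 and 47.8, 54.5, 90.3 and 63.2 CPM in B8. Its change was 0.28 against C64 run 3, 0.51 between the C64 runs and -0.44 with IAA. Ccng2 stood at -0.59, Pcna at -0.39, Upf1 at 0.01 and Nf1 at 0.05, and the median was 0.04. Trp63 stood at 0.78, where 67.04 CPM in run 6 rep2 contrasts with 14.4 to 19.9 CPM in the other B8 libraries. Spermiogenesis genes, for which TRF2 is needed in the testis, were tested in 8 of 23 cases. Their median was 0.11, with 0 under 0.05 (5.73% of all features). Of the deposited lists, 3136 tested TATA genes had a median of 0.03 (5.84% under 0.05) and 10896 TATA-less genes one of 0.01 (5.46%).

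Genes of ribosome production and translation had the lowest medians of the lists. Of 20 tested snoRNA host genes 8 were lower at an unadjusted p under 0.05 and 0 higher, where 3.35% of all features were lower, and their median was -0.70. Of 45 genes of the large ribosomal subunit 12 were lower (median -0.64), of 30 of the small subunit 6 (-0.53), and of 21 translation factor genes 3 (-0.54). Rpl3, of the large subunit, held 589 and 396 CPM in C64, 332 and 287 in B8 run 8, and 202 and 207 in B8 run 6. Snhg1 held 109 and 69.1 CPM in C64, 52.4 and 43.2 in run 8, and 29.1 and 19.4 in run 6. In both genes no B8 library reached C64, and run 6 was below run 8.

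The same lists also differed between runs of the same line, where for C64 the length of the experiment differed too. Between the C64 runs (run 3 against run 2) the medians were -0.68 for snoRNA host genes, -0.74 for the large subunit, -0.73 for the small subunit and -0.43 for translation factors. Against C64 run 3, B8 had medians of -0.03, 0.12, 0.15 and -0.04. Between the B8 runs (run 8 against run 6) they were 0.85, 0.88, 1.07 and 0.97. By feature length, B8 against C64 run 2 had a median of -0.14 in the shortest quartile and 0.22 in the longest, and 9.49% of the shortest under 0.05.

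**Figure D4:**
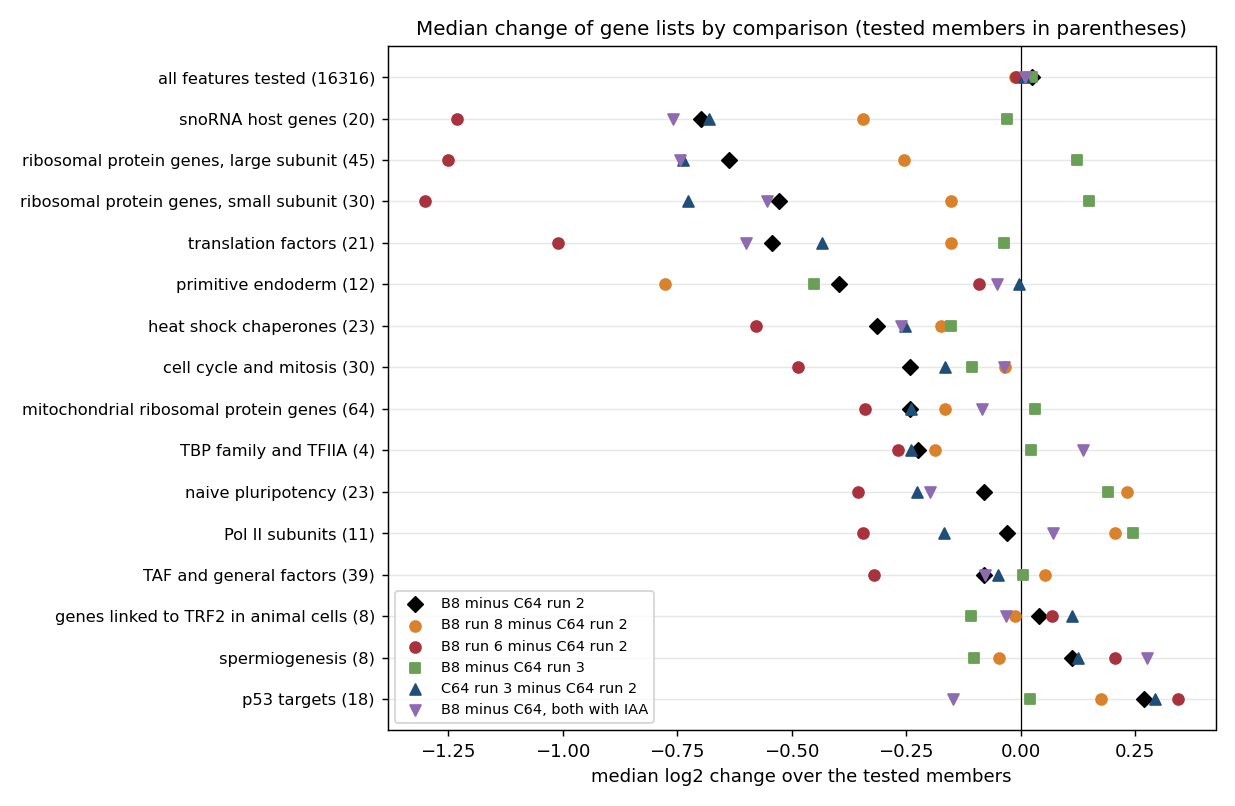
Median log2 change of the tested members of 15 gene lists and of all tested features, by comparison (marker shape and colour), with the number of tested members in parentheses. For snoRNA host, ribosomal protein and translation genes the medians against C64 run 2 (diamonds) and between the C64 runs (dark triangles) lie near each other below 0, and those against C64 run 3 (squares) lie between -0.04 and 0.15.

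Of 12 tested markers of primitive endoderm, an extraembryonic cell type that ES cultures can form, 6 fell in run 8, where 1.46% of all features fell. The basement membrane gene Col4a1 stood at 373 and 328 CPM in C64, 123 and 128 in B8 run 8, and 413 and 288 in B8 run 6. Col4a2 stood at 283 and 253 CPM in C64, 100.2 and 106 in run 8, and 361 and 287 in run 6. Run 8 was well below C64 in both, whereas the run 6 libraries lay on either side of C64 for Col4a1 and above it for Col4a2. In run 8, Col4a1 (-1.48), Col4a2 (-1.37), Lamb1 (-1.16), Lama1 (-1.14), Gata6 (-0.78) and Gata4 (-0.60) passed the threshold, with 0 higher. In run 6 it was 0 of 12 (1.63% of all features fell there). Of the 6, the B8 runs differed for Col4a1 by -1.54 (adjusted p = 0.0258), Col4a2 by -1.71 (0.0253), Lama1 by -1.02 (0.0292) and Gata4 by -0.74 (0.0364), but not past the threshold for Lamb1 and Gata6 (0.0561 and 0.154). With all libraries the list had a median of -0.40. Sox17 (-0.97) and Lamb1 (-0.85) were lower at an unadjusted p under 0.05, as were 3.35% of all features. Sox17 stood at -0.88 in run 8 and -1.12 in run 6, neither past the threshold. The list median was -0.45 against C64 run 3 and -0.004 between the C64 runs. With IAA it was -0.05, with 0 of 12 called (1.06% of all features higher and 2.38% lower). The uptake receptor gene Cubn, not in the list, stood at 152 and 159.8 CPM in C64, 32.96 and 25.2 in run 8, and 88 and 93.3 in run 6. Summed over the 14 markers, none of which was at 0 in all libraries, the level was 1813 and 2399 CPM in C64, 1009 and 1031 CPM in run 8, and 1925 and 2089 CPM in run 6. Fewer such cells and less Pol II per cell cannot be told apart here, and the part of the sequencing run in this was not tested.

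Naive pluripotency genes had 0 of 23 at an unadjusted p under 0.05 with all libraries (5.73% of all features) and a median of -0.08. In run 8, Klf5 (0.81), Esrrb (0.49) and Nr5a2 (0.47) rose, with 0 lower (3.71% and 1.46% of all features). In run 6, Tet2 fell (-1.12, adjusted p = 0.0446) and 0 rose (1.63% and 0.951% of all features). Esrrb stood at 845 and 714 CPM in C64, 1135 and 1051 in B8 run 8, and 718 and 564 in B8 run 6, so run 8 lay above C64 and run 6 overlapped it. Nanog stood at 13.3 and 12.2 CPM in C64 and 8.88, 11.3, 6.89 and 8.74 CPM in B8 (-0.48 ± 0.33). The summed markers of mesoderm were 251 to 276 CPM in C64 and 206 to 247 CPM in B8, and those of trophectoderm 290 to 339 CPM and 249 to 276 CPM. Summed markers of 2-cell-like cells reached 66.1 CPM in run 6 rep2. They were at 7.19 to 23.7 CPM in the other B8 libraries and 10.6 and 12.2 CPM in C64. Of these 21 markers 0 passed the count filter. In run 6 rep2 the highest were Duxf3 (22.4 CPM) and Usp17le (12.6 CPM).

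Stress and growth lists gave small counts. Of 18 tested p53 target genes, 4 were higher at an unadjusted p under 0.05 and 0 lower (2.38% and 3.35% of all features): Cdkn1a, Gtse1 (0.61), the apoptosome gene Apaf1 (0.55) and Plk2 (0.92). Apaf1 held 66.1 and 72.5 CPM in C64 and 87.1, 87.6, 113 and 119.5 CPM in B8. The median of the list was 0.27, with 0.02 against C64 run 3 and 0.29 between the C64 runs. Of 23 heat shock chaperone genes 4 were lower, the mitochondrial Hspa9 (-0.84), Hspd1 (-0.79) and Hspe1 (-0.92) and the cytosolic Hspa8 (-0.98). Hspa9 held 119 and 127 CPM in C64 and 70.6, 67.9, 68.1 and 68.0 CPM in B8, so that the 4 B8 libraries nearly coincided. Hspa9 kept -0.57 against C64 run 3, whereas Hspd1 had 0.25 there. Of 30 cell cycle genes 5 were lower (median -0.24), and of 64 mitochondrial ribosomal protein genes 2 (-0.24).

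The genes that the study names beside these did not pass the test. Actb held 209.6 and 113 CPM in C64 and 149, 145, 118 and 84.5 CPM in B8 (-0.37 ± 0.32), and Gapdh 214 and 137 CPM in C64 and 144, 138, 81.1 and 69.0 CPM in B8 (-0.69 ± 0.34). In both the groups overlapped. Rab26 stood at -0.31 ± 0.23 and Eif4a2, a translation gene that hosts snoRNAs, at -0.73 ± 0.42. Against C64 run 3 the 4 genes had values above 0 (0.65, 0.06, 0.22 and 0.08). Hspa1a was at 0.765 to 2.91 CPM and not tested.

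Chromosome 19, singled out after its values were seen, had the lowest median of the autosomes, -0.23 over 564 tested features, against -0.03 to 0.10 for the others. All 514 windows of 51 neighbouring features on it had a median below 0, as did 33.9% of the windows on other autosomes. It received 2.96 and 3.69% of the fragments in C64, 2.64 and 2.66% in B8 run 8, and 2.74 and 2.95% in B8 run 6. The 2 C64 libraries thus differed from each other by more than the lower one did from B8. Over features of the C64 tables its share was 3.32 and 2.83% in the C64 libraries of run 3. Over the same features it was 2.97 and 3.71% in C64 run 2. In B8 it was 2.645 and 2.66% in run 8, and 2.75 and 3.15% in run 6. Counted so, run 6 rep2 lay above C64 library a. Without C64 library b the median was -0.10, and without library a it was -0.38. In the IAA libraries it was -0.28, and between the B8 runs -0.14. Against C64 run 3 it was -0.10, and between the C64 runs, with no difference of line, -0.11.

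**Figure D5:**
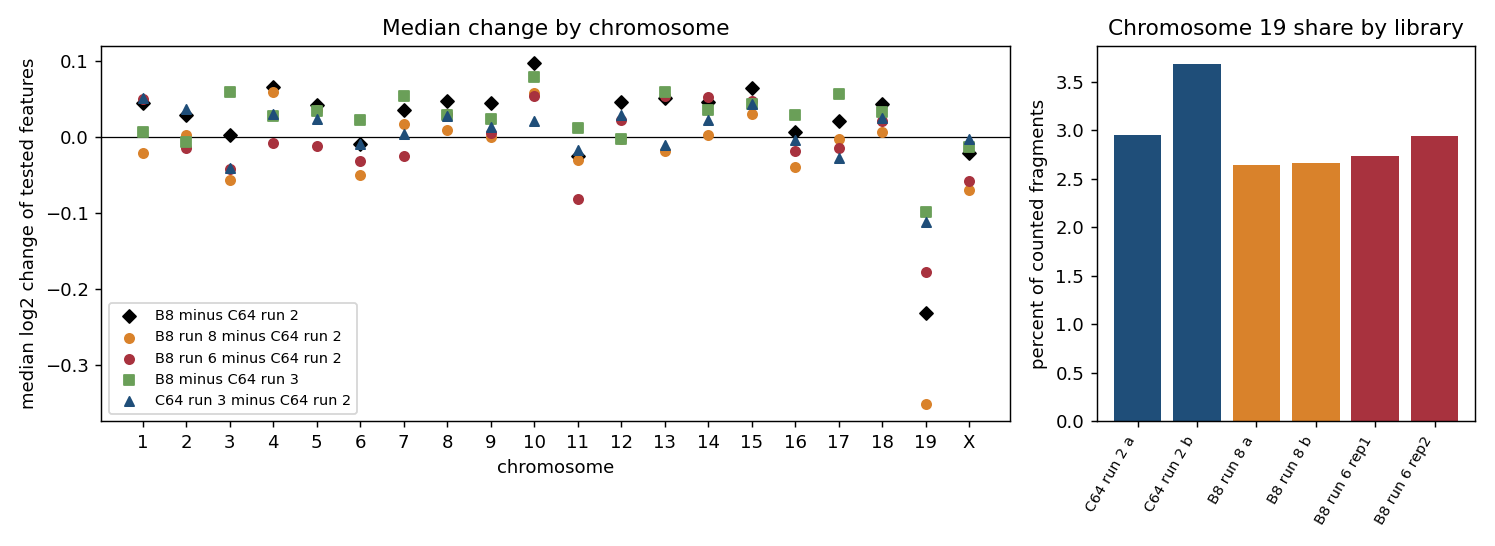
Left, median log2 change of the tested features of each chromosome in 5 comparisons. Right, percent of all counted fragments over chromosome 19 in each library, where C64 library b (3.69%) stands above the other 5 (2.64 to 2.96%).

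Features built of repeats or mitochondrial-like sequence varied between libraries. Of 11 tested features that are repeat-masked over at least 90% of their length, 7 fell in run 8 (1.46% of all features) and 0 passed in run 6 (0.951% higher and 1.63% lower). Gm10800 held 3886 and 2970 CPM in C64, 609 and 706 in B8 run 8, 2502 in run 6 rep1 and 14150 in run 6 rep2. A group of 7 pseudogenes on chromosome 1 with 97.2 to 100% of their 31-base words in the mitochondrial genome rose in run 8 (1.28 to 2.01), as did 3.71% of all features. Gm28439 among them held 81.3 and 64.6 CPM in C64, 334 and 254 in run 8, 109 in run 6 rep1 and 2794 in run 6 rep2. The non-coding Gm31415 (chr3:49062378-49085259) held 1.16 and 1.38 CPM in C64, 47.8 and 46.1 in run 8, 13.8 in run 6 rep1 and 593 in run 6 rep2. In all 3 the highest library was run 6 rep2. Olfactory and vomeronasal receptor genes were taken as a measure of background, though 12 of 1116 and 11 of 355 passed the count filter, Vmn2r77 among them. Together the receptor genes took 0.0982 and 0.118% of the fragments in C64, and 0.0990 and 0.0997% in run 8. In run 6 they took 0.179% in rep1 and 0.349% in rep2. The means, 0.182 ± 0.118% and 0.108 ± 0.0139%, were compared by a two-sided exact permutation test (p = 0.6, the smallest possible being 0.0667).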

How the data were processed

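Pol II CUT&Tag counts of 6 libraries were analysed, with 8 further libraries for comparison. Per the file headers, the authors made the deposited counts with featureCounts 2.0.0, per gene and without strand, on the Ensembl annotation of GRCm38. Per the methods and the submitters' notes, reads were aligned to mm10 with Bowtie2 with duplicates kept and subsampled per run (8, 2 and 4 M reads for C64, B8 run 6 and B8 run 8), and FastQC, deepTools and bedtools were used too. Such subsampling lowers the precision of B8 against C64, and fragments over bases shared by features were not assigned. The study left pseudogenes out of its test, and here all 55367 features were kept (27752 where C64 tables were needed). Of 38 columns of per-sample counts, 18 were not used. C64 run 2 and B8 run 8 columns carry no number that matches a sample title, so they are called a and b.

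Counts were tested with edgeR 4.0.16 in R 4.3.3 by its quasi-likelihood F test after TMM scaling, with features kept by filterByExpr at a minimum of 20 counts and a Benjamini-Hochberg threshold of 0.05, and the fit was checked on simulated counts. B8 was 1 group of 4 and C64 1 of 2, with no run term, since line and run are confounded. Changes are log2 with Wald standard errors from the fitted means and dispersions. Assigned totals ran from 1021508 to 5325523, and the floor of 3 counts covers counting error only, whereas standard errors include the spread between libraries. Lists are described by counts and medians. By rule, features past the threshold were to be named by size of change, up to 15 per direction and 4 per list. As 0 passed, the 5 with the smallest p per direction were named, with Tbpl1, the features within 1 Mb of it and 7 genes the study names. Other genes were named after their values were seen. The members and lists were chosen with earlier results of these data known. Alternatives were the likelihood-ratio test, DESeq2 1.42.0, other scalings, filters, run choices and left-out libraries. Lists with no tested member were those of 2-cell-like cells, Y genes, histones, snoRNAs, protocadherins and the mitochondrial genome. Figures were drawn with matplotlib 3.10.9 in Python 3.11.15.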

Additional observations from a re-analysis of the deposited data

Results flagged for a closer look

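Of 24 quantities (named genes, neighbours of Tbpl1 and shares of fragments) examined for a B8 library far from the other 3 by Dixon's criterion, 4 had one, where chance gives about 1 in 20, or 1.2. In run 6 rep2, Gm15218 stood at 97.16 CPM (the other 3 B8 libraries at 59.95 to 65.81), BC067074 at 73.84 CPM (55.76 to 58.16) and E030030I06Rik at 123.4 CPM (31.86 to 43.62). In run 6 rep1, Raet1e stood at 16.84 CPM (9.223 to 9.716).

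The B8 runs, set against the same C64 libraries, differed from each other at an adjusted p under 0.05 of edgeR's quasi-likelihood test in 1741 features. Among the named genes, run 8 minus run 6 was 0.92 on the log2 scale for Snhg4, 0.845 for Gapdh, 1.16 for Eif4a2 and -1.29 for Eya4.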

How the results depend on the processing

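No paired analysis was possible because the C64 run 2 columns carry no replicate number and no run holds both lines. The count of 0 calls between B8 and C64 remained 0 under RLE and upper-quartile scaling, no filter, a minimum count of 10, the features of the C64 tables, C64 run 3 in place of run 2, and C64 runs 2 and 3 together. It was 15 with edgeR's likelihood-ratio test, 16 with DESeq2, 218 with the B8 runs as separate groups, 442 with only run 6, 872 with only run 8, 1 (Snhg4) after thinning every library to the smallest total, and 0 to 7 when a library was left out, the 7 being without run 6 rep2. Some of these settings use fewer libraries, and the cause of the different counts was not tested.

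The likelihood-ratio test called 1753 features for run 6 against C64 (DESeq2 705), 3391 for run 8 against run 6, 18 for C64 run 3 against run 2 (DESeq2 10), 20 for B8 against C64 run 3 (DESeq2 4) and 1014 with IAA. Leaving out 1 library gave 135 (without C64 a) to 4927 (without rep1) for run 6, 233 (without B8 a) to 2880 (without C64 a) for run 8, 119 (without run 8 a) to 7268 (without run 6 rep1) for run 8 against run 6, 0 to 765 (without run 3 rep1) for C64 run 3 against run 2, 0 to 1 (without run 6 rep2) for B8 against C64 run 3, and 75 (without C64 IAA a, 99 without b) to 591 with IAA. The difference in fragments over olfactory and vomeronasal receptor genes was 0.0735 percentage points, and 0.0178 without run 6 rep2. With 1 library left in a group, it is assumed to vary like the other group.

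Chromosome 19 had a median of -0.351 with only run 8, and of -0.38 (without C64 a) to -0.0994 (without C64 b) when a library was left out. Of the list members 81 were called with only run 8, and 1 without run 6 rep2, an alternative chosen after the data were seen, as was leaving out libraries for the chromosomes. Signs turned for genes below the threshold: Actb to 0.125 without C64 a (-0.777 without b), 0.65 with C64 run 3 and 0.0595 with both C64 runs, and Platr6 to 0.0635 without C64 b (-0.652 without a) and 0.299 with C64 run 3. E030030I06Rik (-0.0915) and Eya4 (-0.235) turned with only run 8, and with C64 run 3 Tbp (0.0666), Gapdh (0.0642), Rab26 (0.223) and Eif4a2 (0.0832) did. Of the 584 values under alternatives, 475 kept their direction and their side of the threshold, or their size.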
